A study of Mus musculus with 10 samples.

Results

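Pmp22, Mbp, Prx, S100b, Sox10 and Mal are genes of peripheral nerve, and they were followed here by name across gastrocnemius arrays, using every probe set annotated to 1 gene. Of the 6 genes, 5 had such a probe set among the 18193 genes named on the array, and these 5 had 16 of the 34945 single-gene probe sets. Prx was not analysed here, because no probe set was annotated to it in the table used. The arrays were Affymetrix Mouse Genome 430 2.0 arrays of the gastrocnemius, a calf muscle, from 5 Skn-1 deficient and 5 wild-type mice. The gene is now called Pou2f3. It encodes a transcription factor of the POU family, known from taste receptor cells and tuft cells. The labels do not restrict the deficiency to a tissue, and the targeted exons are not named. All 10 mice were males of 12 to 16 weeks, were kept on chow and were dissected after a fast of 18 h. The labels give both genotypes a mixed 129 and C57BL/6J background, with more than 10 generations of backcrossing to C57BL/6J. They call the arrays of a genotype biological replicates, and an array is named below by its genotype and replicate number.

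A muscle contains the branches of the nerve that drive it, and each motor axon in them is wrapped by Schwann cells, the glia of peripheral nerve. Myelinating Schwann cells wind their membrane around the axon into myelin, which is built of lipids such as galactosylceramide and of a small set of abundant proteins, and which lets impulses travel fast. Sox10 is the transcription factor that Schwann cells need at every stage. Pmp22 and Mbp are structural proteins of compact myelin, Mal is a small membrane proteolipid of myelin and of some epithelia, Prx (periaxin) ties the outer Schwann cell membrane to the surrounding matrix, and S100b is a calcium-binding protein much used as a Schwann cell marker. In human nerve disease, extra or missing copies of PMP22 cause the commonest inherited neuropathies. None of these genes is private to nerve: Pmp22 is also made by fibroblasts, S100b by adipocytes and Mal by epithelia.

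The deposited values spread in an unusual way, and this decides which of the genes can be read. Over the 10 arrays 86.2% of all 45037 probe sets had an SD of at most 0.01 on the deposited scale, which is taken as log2. Those are called nearly constant below and the other 6209 varying. A difference of a nearly constant probe set has no size that can be read as RNA. Pmp22 with its 1 probe set, Mal with both of its 2 and Mbp with 6 of its 8 varied, which makes 9 varying probe sets from 3 genes. Both probe sets of S100b and all 3 of Sox10 were nearly constant, as were 2 of Mbp. The 1 probe set of Pou2f3 was nearly constant too (6.47 in both genotypes), so it does not check the labels. No member lay near the threshold. The smallest SD among the 9 was 0.145 (Mbp 1454651_x_at) and the largest among the other 7 was 0.000542 (Sox10 1425369_a_at). The label of myelin and Schwann cell genes thus rests here on 3 myelin protein genes, while Sox10 and S100b gave no difference that can be read.

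The upstream sequences of Pmp22 and Mal, taken from the RefSeq promoter table (GRCm38.p6), are shown here. They are given because these genes moved together over the arrays, as described below. Those of Mbp, which also varied, are not shown here. Each window is the 250 bases before an annotated start, read 5′ to 3′ on the gene's strand, with every CG in capitals. Pmp22 has several annotated starts. Transcripts from alternative first exons are known for this gene, and the probe set does not tell them apart here. The first line is the window before the most upstream start (chr11:63128732-63128981, plus strand), the second the window before the next start (chr11:63131207-63131456, plus strand), and the third that of Mal (chr2:127656696-127656945, minus strand).
Pmp22 first start: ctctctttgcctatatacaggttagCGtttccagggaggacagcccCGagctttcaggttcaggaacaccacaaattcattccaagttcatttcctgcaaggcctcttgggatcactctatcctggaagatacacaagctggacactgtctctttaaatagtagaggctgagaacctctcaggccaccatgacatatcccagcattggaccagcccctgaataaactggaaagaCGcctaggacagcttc
Pmp22 next start: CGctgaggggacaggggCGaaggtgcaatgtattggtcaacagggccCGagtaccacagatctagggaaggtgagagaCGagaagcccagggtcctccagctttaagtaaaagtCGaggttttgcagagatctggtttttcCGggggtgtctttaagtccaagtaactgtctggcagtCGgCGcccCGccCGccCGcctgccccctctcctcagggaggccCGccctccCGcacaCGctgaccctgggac
Mal: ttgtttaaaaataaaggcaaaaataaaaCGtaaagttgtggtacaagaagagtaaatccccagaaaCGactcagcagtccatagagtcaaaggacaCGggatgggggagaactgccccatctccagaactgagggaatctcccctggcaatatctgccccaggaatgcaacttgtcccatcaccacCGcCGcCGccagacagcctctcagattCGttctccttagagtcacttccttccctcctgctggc
The windows differ in base composition. The first Pmp22 window held 3 CG and was 48.8% G or C, the next held 14 CG and was 61.2% G or C, and that of Mal held 7 CG. Over all 32851 windows of this length in the table the medians were 6 CG and 52.4%. The 3 windows were searched on both strands for the 8 words of 6 letters that consist of CAA with 2 letters A or T before it and 1 letter A or T after it, the kind of word that SOX proteins bind. They were also searched for GTGGGCG, a core of EGR sites, and for TATAAA. None of the 3 windows held any of these words, which do not overlap one another. Of all windows 52.5% held a word of the first kind, 7.02% held GTGGGCG and 12.4% held TATAAA.

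The myelin protein genes did not separate the genotypes. Pmp22, read by probe set 1417133_at, had 10.28, 10.10, 10.14, 9.82 and 9.99 (log2) in Skn-1 deficient muscles 1 to 5, against 10.01, 9.81, 9.92, 9.73 and 10.39 in wild-type muscles 1 to 5. The highest and the lowest value were both from wild types, so the groups overlapped fully. The means were 10.07 ± 0.173 in Skn-1 deficient and 9.97 ± 0.255 in wild-type muscles (SD, n = 5 each). The log2 difference was 0.09 ± 0.13 (SE), or 1.07-fold with a 95% interval from 0.863 to 1.32 (limma adjusted p = 0.978). An interval of this width does not show that the levels were alike. The difference depended on single arrays: it was 0.20 without wild type 5, 0.034 without wild type 4, 0.041 without Skn-1 deficient 1, 0.054 without wild type 2, 0.16 without Skn-1 deficient 4 and 0.033 with arrays weighted by their fit. It passed in none of these fits (limma).

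Mbp, myelin basic protein, which zips together the inner faces of the myelin membrane, is the best covered of the genes. Its probe set 1433532_a_at had 11.12, 10.94, 11.05, 10.58 and 10.97 (log2) in Skn-1 deficient muscles 1 to 5, against 10.66, 10.71, 10.82, 10.59 and 11.13 in wild-type muscles 1 to 5. In 4 of 5 Skn-1 deficient arrays the value was above those of wild types 1 to 4, but Skn-1 deficient 4 was the lowest of all 10 and wild type 5 the highest. The means were 10.93 ± 0.208 and 10.78 ± 0.213 (SD, n = 5 each), and the log2 difference of 0.15 ± 0.13 (SE) was 1.11-fold, with an interval from 0.904 to 1.36 (limma adjusted p = 0.947). It was 0.24 without Skn-1 deficient 4, 0.24 without wild type 5, 0.10 at the lowest without 1 array and 0.083 with array weights, and it passed in none of these fits (limma). The other 5 varying Mbp probe sets differed by 0.07 (1419646_a_at) to 0.14 (1451961_a_at) on the log2 scale. The smallest unadjusted limma p among all 6 was 0.260, for 1454651_x_at, whose values averaged 8.14 ± 0.114 in Skn-1 deficient and 8.03 ± 0.166 in wild-type muscles. Probe sets whose names end in _x_at hold probes that can also match other transcripts, and 3 of the 6 are of this kind. All 6 are from 1 gene and 10 arrays, so their shared sign is not a set of separate results.

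Mal was read by 2 varying probe sets. The one with the higher mean, 1417275_at, had 7.89, 7.85, 7.97, 7.47 and 7.88 (log2) in Skn-1 deficient muscles 1 to 5, against 7.78, 7.63, 7.72, 7.59 and 8.03 in wild-type muscles 1 to 5. As for Mbp 1433532_a_at, the extremes were Skn-1 deficient 4 at the low end and wild type 5 at the high end, and the groups overlapped. The means were 7.81 ± 0.199 and 7.75 ± 0.172 (SD, n = 5 each), with a log2 difference of 0.06 ± 0.11 (SE), or 1.05-fold with an interval from 0.872 to 1.25 (limma adjusted p = 0.987). It was 0.15 without Skn-1 deficient 4, 0.13 without wild type 5, 0.024 without Skn-1 deficient 3, 0.025 without wild type 4, 0.034 without wild type 2, 0.024 with array weights and 0.11 with the level of skin markers, described below, as a covariate. It passed in none of these fits (limma). The second probe set, 1432558_a_at, gave 0.07 ± 0.12 (SE, adjusted p = 0.986 in the same limma fit).

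**Figure D1:**
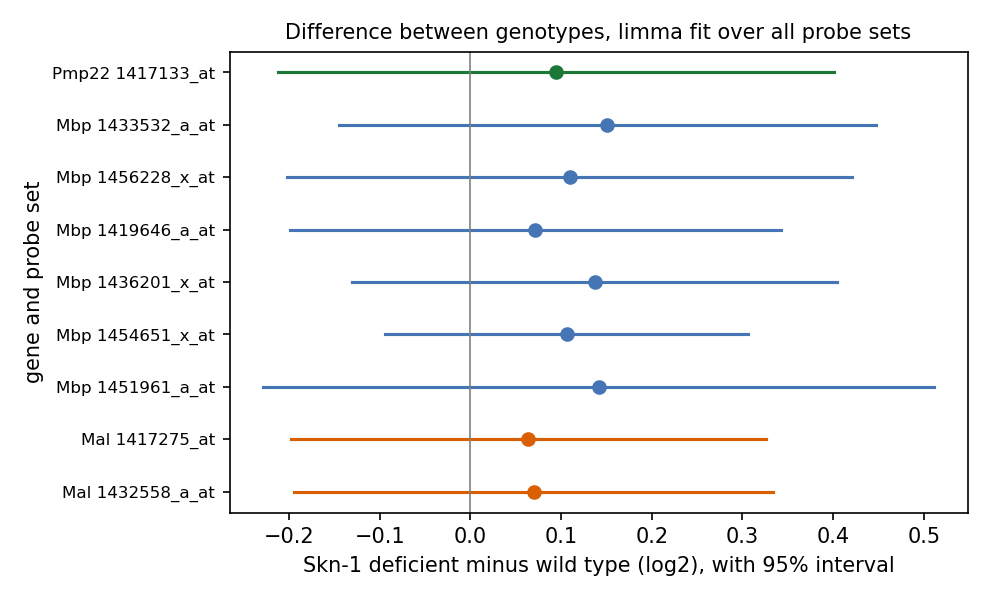
Difference of each of the 9 varying probe sets, Skn-1 deficient minus wild type, on the log2 scale; points are limma estimates and bars their 95% intervals, coloured by gene. All 9 points lie between 0.06 and 0.15 and all 9 intervals include 0, running from −0.23 to 0.51 at the widest.

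None of the 16 passed the threshold of 0.05 for the adjusted p of limma, where 0.191% of all 45037 probe sets did. At an unadjusted p under 0.05 there was also none of the 9 varying ones, where 9.92% of all varying probe sets were. No member separated the genotypes without overlap, where 3.96% of varying probe sets did. The 9 log2 differences ran from 0.06 to 0.15 with a median of 0.11, against a median of −0.0021 over all varying probe sets, of which 49.2% were higher in Skn-1 deficient muscle. The 9 were all on the higher side, and since the 3 genes varied together over the arrays, as shown next, these signs are not independent of one another. Markers of fibroblasts, which also make Pmp22, lay on the same side. All 11 varying probe sets of their 14 were higher in Skn-1 deficient muscle, by a median of 0.18 on the log2 scale, with 1 at an unadjusted p under 0.05 and none past the threshold (limma). Their mean per array ran from 8.96 to 9.28 in Skn-1 deficient and from 8.74 to 9.16 in wild-type muscles. Fibroblasts were not alone in this. Of the varying probe sets, 15 of 16 of epidermis and hair (median 0.36) and 9 of 11 of muscle fibres (median 0.04) were higher. So were 8 of 12 of lymphocytes and 6 of 8 of adipocytes, but only 4 of 11 of macrophages and 1 of 5 of endothelium. The part of any of these cell types in the result was not tested. In the 7 nearly constant probe sets the unadjusted limma p ran from 0.347 to 0.825, and 4 of the 7 were higher in Skn-1 deficient muscle. In these whole muscles a change in the number of Schwann cells and a change in their RNA per cell cannot be told apart.

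The values varied between animals of the same genotype, and the genes shared this variation. In each of the 9 probe sets the difference between genotypes was smaller than the SD within either genotype. From the lowest to the highest array the 9 probe sets ranged over 0.39 (Mbp 1454651_x_at) to 0.82 (Mbp 1451961_a_at) on the log2 scale, which is 1.31-fold to 1.77-fold. Averaged over the 9, wild type 5 stood 0.26 above the mean of all arrays and was the highest array in 6 of the 9. Skn-1 deficient 3 followed at 0.23, then Skn-1 deficient 1 at 0.12 and Skn-1 deficient 5 at 0.12, and Skn-1 deficient 2 lay close to the mean. At the low end were Skn-1 deficient 4 at −0.22, wild type 4 at −0.20, wild type 2 at −0.20 and wild type 1 at −0.10, and on each of these 4 arrays all 9 probe sets were below their own means. Each genotype thus held an array at both ends of the order.

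**Figure D2:**
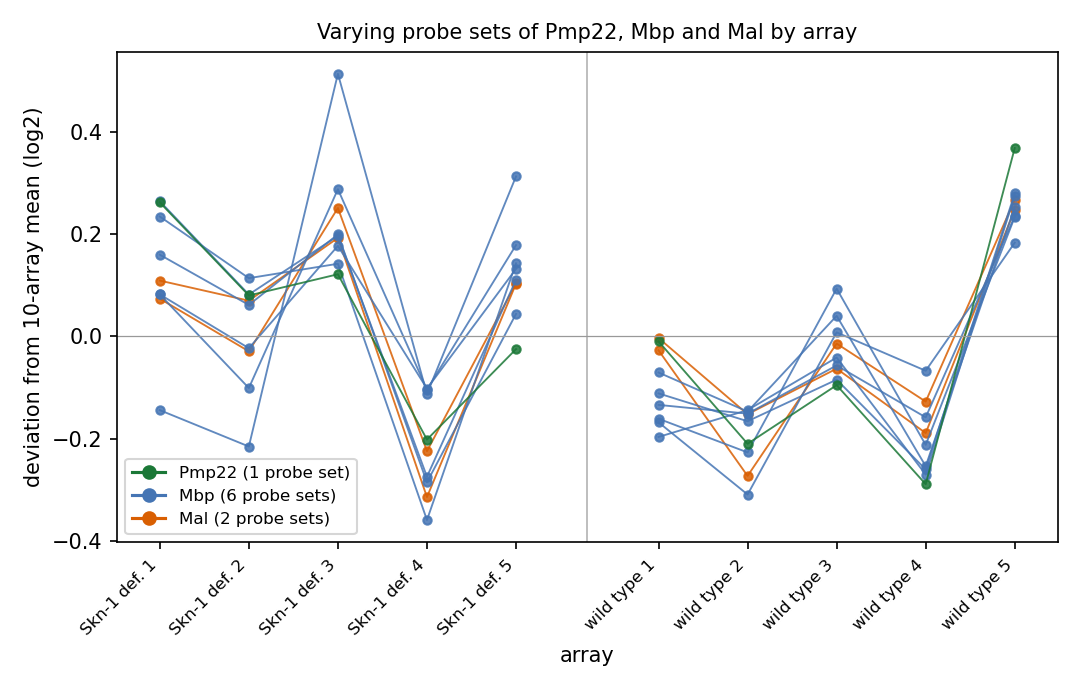
Value of each varying probe set of Pmp22 (1), Mbp (6) and Mal (2) as its deviation from its own mean over 10 arrays (log2), with the 5 Skn-1 deficient (Skn-1 def.) arrays on the left and the 5 wild-type arrays on the right; lines join the values of 1 probe set and imply no order of the animals. Skn-1 deficient 4 and wild type 2 and 4 lie low for all 9, and wild type 5 and Skn-1 deficient 3 lie high for all 9.

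Taken gene by gene, the levels followed one another closely. Over the 10 arrays Mbp (1433532_a_at) and Mal (1417275_at) had Pearson's r = 0.913 and Spearman's rho = 0.952 (permutation p = 0.0003 and 0.00013, adjusted p = 0.00171 and 0.00104). Mbp and Pmp22 had r = 0.901 and rho = 0.855 (permutation p = 0.00052 and 0.00295, adjusted p = 0.00171 and 0.00787). Pmp22 and Mal had r = 0.887 and rho = 0.915 (permutation p = 0.00064 and 0.0005, adjusted p = 0.00171 and 0.002). These tests were two-sided with 100000 permutations, and p-values were adjusted over 8 relations, the other 5 of which follow below. Without the 2 arrays farthest from the median of the first gene of each pair r was 0.860, 0.844 and 0.896. The arrays left out were Skn-1 deficient 4 and wild type 4 for both pairs with Mbp, and wild type 5 and Skn-1 deficient 1 for Pmp22 and Mal. Without Skn-1 deficient 4 and wild type 5, the ends of the order above, r was 0.879, 0.873 and 0.885, a choice made after seeing the data. With each genotype's mean taken out first, r was 0.925, 0.902 and 0.883. The genes of a pair share their arrays, RNA and normalization. The members were chosen with earlier results of these data known, and each was read by a probe set that varied on these arrays. The permutation p-values are thus a description of these arrays and not separate evidence that the genes vary together.

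**Figure D3:**
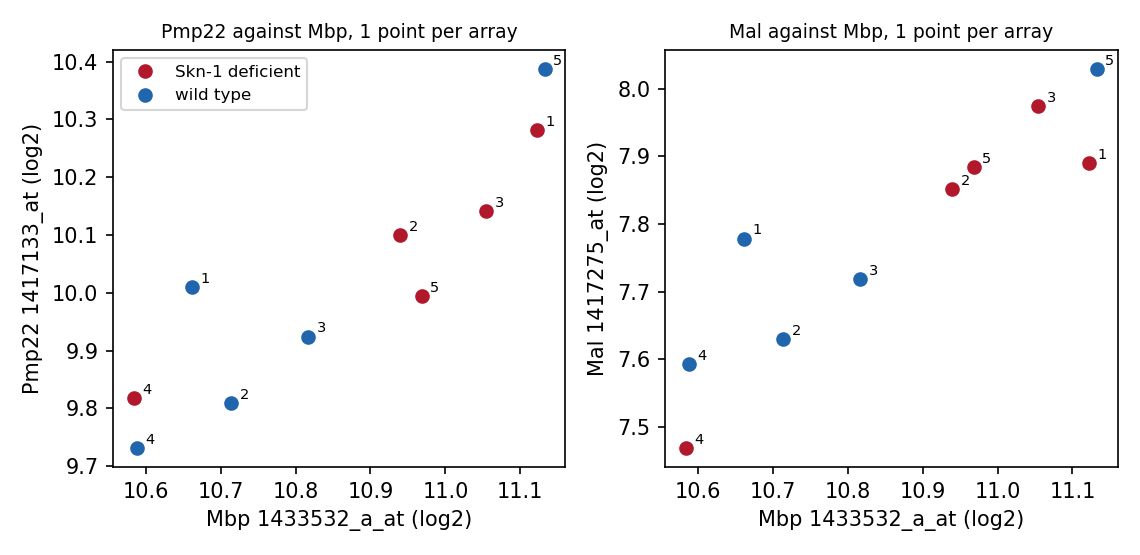
Pmp22 (left) and Mal (right) against Mbp, each as the deposited value (log2) of the probe set with the highest mean, 1 point per array with its replicate number. Skn-1 deficient and wild-type arrays lie along 1 common line, from Skn-1 deficient 4 and wild type 4 at the lower end to wild type 5 at the upper end.

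Within Mbp, 5 of the 6 varying probe sets had similar patterns over the arrays, with r from 0.742 to 0.972 over their 10 pairs. Their order of arrays was not the same. The highest array was wild type 5, Skn-1 deficient 1 or Skn-1 deficient 3, and the lowest was Skn-1 deficient 4 or wild type 4. The sixth, 1451961_a_at, stood somewhat apart (r from 0.504 to 0.808 with the others). It read 7.34 and 7.14 in Skn-1 deficient 3 and 5, and between 6.51 and 7.01 in the other 8 arrays. The 2 probe sets of Mal had r = 0.924. These values describe probe sets of the same gene on the same arrays, and no test was made of them.

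All varying single-gene probe sets outside the 5 genes were ranked by their r with a mean pattern. This pattern was the mean of the standardized Pmp22, Mbp and Mal values over 10 arrays. Among 5437 probe sets of 3843 genes, the 3 closest were Ugt8a, Ncmap and Drp2. Ugt8a makes galactosylceramide, the main glycolipid of myelin (r = 0.913). Ncmap is a membrane protein of noncompact myelin (r = 0.896), and Drp2, dystrophin-related protein, binds periaxin at the outer Schwann cell membrane (r = 0.868). The fourth was Gpm6b, a membrane glycoprotein of neural cells (r = 0.848), and the fifth Ndrg1, whose human counterpart is mutated in a demyelinating neuropathy (r = 0.764). Ctxn3, Sfrp5, a secreted inhibitor of Wnt signalling, and Sparc, a matrix glycoprotein made by many cells, completed the first 8 genes (r = 0.761, 0.758 and 0.740). Not all myelin genes were this close. Cnp, an enzyme of noncompact myelin, was at place 12 (r = 0.691). Egr2, the transcription factor that turns on myelination, was at place 106 (r = 0.503). A ranking over so many probe sets gives high values in any case, and these r are a description of 10 arrays.

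Ugt8a had 7.01, 6.79, 7.08, 6.43 and 6.76 (log2) in Skn-1 deficient muscles 1 to 5, against 6.82, 6.48, 6.47, 6.56 and 7.12 in wild-type muscles 1 to 5. It was highest in wild type 5 and lowest in Skn-1 deficient 4, as probe sets 1433532_a_at of Mbp and 1417275_at of Mal were. Its log2 difference was 0.13 ± 0.16 (SE, limma adjusted p = 0.974). Ncmap averaged 7.07 ± 0.110 in Skn-1 deficient and 7.06 ± 0.140 in wild-type muscles (SD, n = 5 each), with the same 2 arrays at its ends, 6.88 in Skn-1 deficient 4 and 7.31 in wild type 5. Drp2 moved over a much narrower span, between 7.22 and 7.28 on all 10 arrays, and Gpm6b lay between 7.15 and 7.24.

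**Figure D4:**
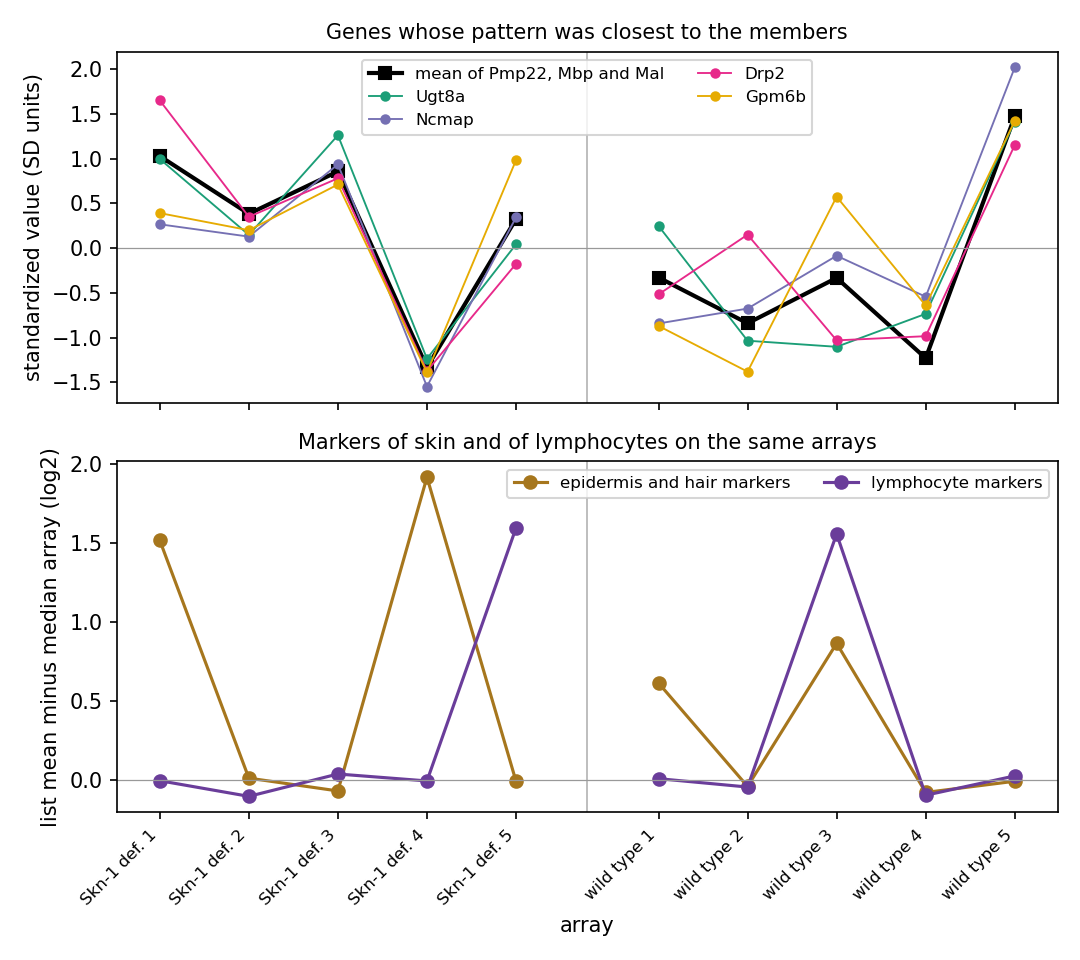
Upper panel: mean standardized value of Pmp22, Mbp and Mal (black) and standardized values of Ugt8a, Ncmap, Drp2 and Gpm6b on each array, in SD units. Lower panel: mean of the varying epidermis and hair markers and of the varying lymphocyte markers on each array, minus the median array (log2); lines imply no order. Skn-1 deficient 4 is the lowest array for the black line (−1.33) and the highest for skin markers, while Skn-1 deficient 1 is high for both.

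In wider lists of nerve genes no probe set passed the threshold between genotypes, and most were nearly constant. Among 10 measured myelin genes outside the 5, such as Mag and Pmp2, 4 of 16 probe sets varied, and none of the 16 passed (limma). All 4 varying ones were higher in Skn-1 deficient muscle, by a median of 0.06. They belonged to Ugt8a, Ncmap and Drp2, described above, and to Cnp, an enzyme of noncompact myelin, which averaged 8.69 ± 0.182 in Skn-1 deficient and 8.59 ± 0.186 in wild-type muscles (log2 difference 0.11 ± 0.11 SE, limma adjusted p = 0.964). Among 11 regulators and receptors of Schwann cells 1 of 21 probe sets varied and none passed. That one was of Egr2, the transcription factor that turns on myelination, at 6.51 ± 0.302 in Skn-1 deficient and 6.36 ± 0.101 in wild-type muscles (SD, n = 5 each, limma adjusted p = 0.951). Its highest value, 6.96, was in Skn-1 deficient 2, an array in the middle of the order for Mbp. The other probe sets of Cnp and Egr2 were nearly constant. At an unadjusted p under 0.05 each of these lists had 1 nearly constant probe set, against 6.62% of all probe sets.

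Few transcripts of the nerve's other partners could be read. All 18 probe sets of 10 axon and neuron genes, such as the neurofilament genes Nefl and Nefm, were nearly constant. So were 86.2% of all probe sets. Most RNA of a motor axon lies in its cell body in the spinal cord, outside the muscle. Whether this has a part in these values was not tested. Of 14 probe sets for 11 genes of the neuromuscular junction, the synapse on the muscle fibre, 2 varied. Musk, the kinase that clusters acetylcholine receptors, averaged 7.14 ± 0.330 in Skn-1 deficient and 7.24 ± 0.412 in wild-type muscles (limma adjusted p = 0.992), and its r with the mean of the myelin genes was 0.29. Chrnb1, a subunit of that receptor, averaged 7.76 ± 0.150 and 7.76 ± 0.130 and did not pass in the same limma fit, with r = −0.11. Neither of these lists had a probe set past the threshold. Each had 1 nearly constant one at an unadjusted limma p under 0.05, where 6.62% of all probe sets were.

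Other tissues on the arrays were read beside these values. The tissue itself was clear, with creatine kinase Ckm, in its probe set with the highest mean, between 13.63 and 13.83 on all 10 arrays. Markers of epidermis and hair stood high on 4 arrays, and those of lymphocytes on 2. Of 21 skin probe sets 16 varied, with means per array from 6.08 to 8.07 in Skn-1 deficient and from 6.07 to 7.02 in wild-type muscles. Of 20 lymphocyte probe sets 12 varied, with means from 5.95 to 7.65 and from 5.95 to 7.61. Skin markers were highest in Skn-1 deficient 4 (8.07), the array with the lowest mean deviation of the 9 myelin probe sets and the lowest value in 4 of them, but second in Skn-1 deficient 1 (7.67), where 8 of the 9 myelin probe sets lay above their means. Wild type 5, with the highest myelin values, carried neither (6.15 and 6.07). Melanocytes, which also use Sox10, had 1 varying probe set of 13, that of Mitf, which many other cells make as well, and their pigment genes Tyr, Dct and Pmel were nearly constant. Without the 5 arrays with raised skin or lymphocyte markers, a choice made after seeing the data that left 2 Skn-1 deficient and 3 wild-type arrays, the 9 log2 differences were from 0.10 to 0.21 and none passed (limma).

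Mbp was also set against the mean of the varying markers of 5 other cell types of muscle over the 10 arrays, and none of these relations passed. For fibroblasts r was 0.546 and rho 0.394 (permutation p = 0.105 and 0.263, adjusted p = 0.21 and 0.395), for endothelium 0.397 and 0.479 (permutation p = 0.252 and 0.167, adjusted p = 0.403 and 0.334), and for macrophages 0.325 and 0.370 (permutation p = 0.358 and 0.296, adjusted p = 0.477 and 0.395). For adipocytes r was 0.105 and rho 0.103 (permutation p = 0.766 and 0.784, the same when adjusted), and for muscle fibres r was −0.104 and rho −0.236 (permutation p = 0.764 and 0.511, adjusted p = 0.766 and 0.584). Without the 2 arrays farthest from the median of Mbp, Skn-1 deficient 4 and wild type 4, r was 0.743 for fibroblasts, 0.044 for endothelium, 0.235 for macrophages, 0.0093 for adipocytes and 0.409 for muscle fibres. The difference between these relations and those among the myelin genes was not tested.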

How the data were processed

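Gene expression was measured in gastrocnemius with 1 Affymetrix Mouse Genome 430 2.0 array per sample. Per the labels' protocols, RNA came from a Trizol extraction with column purification, and labelling by in vitro transcription started from 100 ng. The values deposited by the authors were read as log2, because they run from 4.93 to 13.96, and as normalized between arrays, whose medians lay between 6.23 and 6.24. Software, log base and summary method: not given in the sources used here. Folds rest on the log2 reading. The table used holds no detection calls.

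Of 45101 rows 64 array controls were left out. Probe sets were named from the platform annotation through gene identifiers of the RefSeq gene table of GRCm38.p6, which held 34741 of the 34945 probe sets with 1 gene; 932 had several genes and 9160 were unnamed. All 45037 were fitted with limma 3.58.1 (R 4.3.3; eBayes without trend, no covariates), Skn-1 deficient minus wild type, with Benjamini-Hochberg adjustment at 0.05 over all of them. The fit was tested on simulated data, with independent probe sets and added differences larger than those of the members. That test does not show whether differences as small as theirs could be found. The number of arrays limits the precision. Over varying probe sets pairs of arrays correlated with r from 0.950 to 0.993, and no 2 arrays were identical.

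The members and the gene lists were chosen with earlier results of these data known. Named were all members, in each nerve list the genes past the threshold or otherwise up to 3 varying genes with the smallest p, the 8 genes closest in pattern, and few markers of other cell types. Correlations, permutations and figures used Python 3.11.15, numpy 2.4.6, scipy 1.17.1, pandas 2.3.3 and matplotlib 3.10.9.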

Additional observations from a re-analysis of the deposited data

Results flagged for a closer look

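In 5 of 42 groups of 5 arrays, 1 value stood far from the rest of its genotype by its gap to the nearest array. All 5 were in Skn-1 deficient 4 or wild type 5. For a single group chance gives about 1 in 20. The groups share the same arrays and many are probe sets of the same gene, so their count cannot be set against that rate. Of the 42 groups, 18 were the 2 genotypes of the 9 varying probe sets of Pmp22, Mbp and Mal, and 24 were those of the varying nerve-list genes and of the genes with the closest pattern. Mal (1417275_at) was at 7.47 in Skn-1 deficient 4, with the nearest Skn-1 deficient array at 7.85. Mbp (1456228_x_at) was at 9.39 in the same array, with the nearest at 9.86. In wild type 5, Mbp (1454651_x_at) was at 8.32 with the nearest wild-type array at 8.03, and Ncmap was at 7.31 with the nearest at 7.06. Ndrg1 was at 9.22 in wild type 5, with the nearest at 8.86. The genes with the closest pattern, Ncmap and Ndrg1 among them, entered because their values correlated with those of the myelin genes. Their arrays are thus not separate evidence. Skn-1 deficient 4 also had the highest skin markers of the 10 arrays, and their part in its low myelin values was not tested.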

How the results depend on the processing

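The 9 log2 differences of the myelin genes were recomputed under up to 23 alternatives, 195 values in all. Of these, 51 equal the reported difference by construction, with only the p able to move, and the other 144 kept its sign. None of the 195 was called, the lowest adjusted p being 0.730 (limma, Mbp 1454651_x_at without wild type 5, log2 difference 0.18, unadjusted p = 0.0190). Over these settings the differences lay between 0.033 and 0.20 for Pmp22, 0.017 and 0.24 for Mbp, and 0.010 and 0.16 for Mal. Exact two-sided permutation tests gave p from 0.278 to 0.611, where 5 against 5 arrays can reach 0.00794. No member and no probe set of the other nerve lists passed under any alternative (limma). The count over all probe sets, 86, was less stable. It was 43 after quantile normalization, 143 with only varying probe sets tested, 5 with 1 probe set per gene, that with the highest mean, 39 with the skin markers and 57 with the lymphocyte markers as a covariate, and from 31 to 57 without 1 array. It was 117 with only probe sets above the median mean, 112 with array weights, 85 with a trend in eBayes, 62 with arrays centred on the median and 61 when each gene was read by its most variable probe set. As a replicate block, the number left 5, and this block changed no call of a nerve gene. Whether same-numbered arrays share more than a number is not known here. Their deviations correlated with r from −0.400 to 0.322 over varying probe sets, above 0.1 in 2 of 5 pairs. Of the Skn-1 deficient arrays, 2 of 5 correlated best with the wild-type array of their own number. These correlations cannot decide whether the arrays were paired. Without the 5 arrays with skin or lymphocyte genes the count over all probe sets was 0, with 2672 at an unadjusted limma p under 0.05, from fewer samples. The cause of the other moves was not tested. The number of arrays limits what can be seen, and the widest interval of a myelin gene would still hold a 1.43-fold difference.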
